A study of Mus musculus with 20 samples.

Results

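The Rab genes encode small GTPases that direct membrane traffic, and 46 of them passed a filter on low values in the livers of mice subjected to trauma and hemorrhagic shock. Members were all genes on the array named Rab followed by a number from 1 to 43 and at most a letter. Of 58 such genes, 46 passed the brightness filter, which asked for a probe set exceeding its array's median in 3 or more samples, and were tested, out of 12832 genes tested in all. All mice were male C57BL/6 aged 8 to 12 weeks, and RNA came from whole liver. The groups were non-manipulated control mice (n = 5), mice with minor trauma (n = 3), mice taken after hemorrhagic shock with severe trauma lasting 1.5 h (the shock group, n = 4), and mice resuscitated after that shock and trauma for 1 h (n = 4) or for 4.5 h (n = 4). The sources used here do not say what the minor trauma was, when those mice were sampled or what fluid was given. The titles number the arrays within a group and do not say that each came from a mouse of its own, so p-values measure the spread between these arrays. The 4 comparisons with control share the same 5 control arrays.

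A Rab protein switches between a GTP-bound form that sits on a membrane and a GDP-bound form that a carrier keeps in the cytosol. Exchange factors load it with GTP, GTPase-activating proteins switch it off, a geranylgeranyl transferase attaches the lipid tail that anchors it, and effectors that bind the active form tether, move or fuse the vesicle. Each Rab marks its own station, from the endoplasmic reticulum and Golgi through early, recycling and late endosomes to secretory granules. Hepatocytes rely on these routes to secrete plasma proteins, to take up ligands at the sinusoidal side and to carry transporters and immunoglobulin A to the bile canaliculus. Values below are levels as log2(signal + 6) after quantile normalization, on which the median of every array is 4.6. A difference is in log2 units on that scale, which understates the change of dim genes, and levels are not compared between genes. A gene was called when its p-value from limma, adjusted by Benjamini and Hochberg over all 12832 genes, was at most 0.05.

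Array medians of the signal as deposited ran from 14 to 29.1. All 8 tested hepatocyte markers lay above the array median on 20 of 20 arrays. The array labelled control 5 correlated best with the array labelled minor trauma 2, over all genes (r = 0.983) and over the Rab genes (r = 0.991). The arrays also fall into 2 sets of 10 by the signal of an added Dap control RNA, at 425 to 2080 in one and 0.348 to 3.72 in the other, and both sets hold arrays of all 5 groups. The array labelled minor trauma 3 had the lowest best correlation with any other array over all genes (r = 0.95) and the lowest array weight (0.18).

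Most calls among the Rab genes against control came at 4.5 h of resuscitation and went in both directions, as did those over all genes. At 4.5 h of resuscitation 23 of 46 Rab genes (50%) were called against control, 10 higher and 13 lower, against 38.9% of all genes tested. Of all genes 15.1% were called higher and 23.8% lower. Before that, 1 Rab gene was called after minor trauma, and it was higher (2.17%, against 3.44% of all genes, 2.07% higher and 1.37% lower). In shock 1 was called, also higher (2.17%, against 3.11% of all genes, 2.03% higher and 1.08% lower). At 1 h of resuscitation 3 were called, 2 higher and 1 lower (6.52%, against 9.91% of all genes, 4.61% higher and 5.31% lower). The median difference of the Rab genes from control was 0.02 at 4.5 h, where that over all genes was -0.089. It was 0.07 for minor trauma (all genes -0.002), -0.06 for the shock group (all genes -0.028) and -0.07 for the 1 h group (all genes -0.071). In 17 of the 23 genes called at 4.5 h the arrays of the 4.5 h and control groups did not overlap (37% of the 46, against 28.5% of all genes), and in 6 the change was at least 2-fold (13%, against 12.5% of all genes). With the values as deposited, without normalization between arrays, 10 were called at 4.5 h, 2 higher and 8 lower (21.7%, against 22.7% of all genes). The 13 calls that were lost were those of Rab6a, Rab12, Rab18, Rab1a, Rab21, Rab31, Rab33b and Rab35 among the higher and of Rab4a, Rab9, Rab11a, Rab13 and Rab14 among the lower. Within the set of arrays with the added control RNA 15 of 45 were called at 4.5 h (33.3%, against 21.8%), and within the set without it 11 of 44 (25%, against 23.7%). The F test over the 5 groups called 24 Rab genes (52.2%), against 45.4% of all genes. It called 17.4% against 24.7% with the values as deposited, 13.3% against 19.8% within the set with the added RNA and 18.2% against 15.4% within the set without it.

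**Figure D1:**
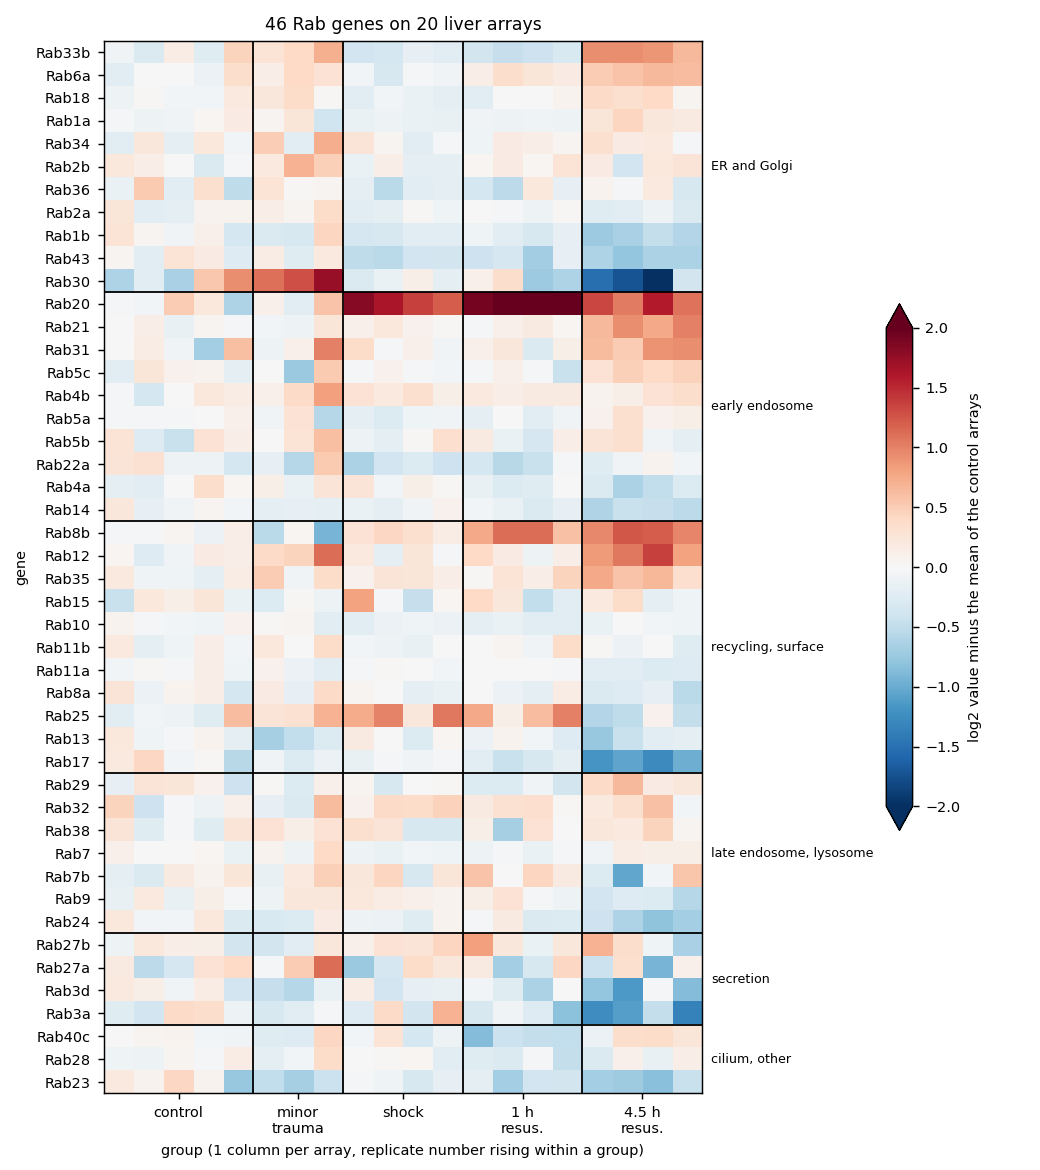
Levels of the 46 tested Rab genes (rows, grouped by the compartment they are known for) on the 20 arrays (columns, by group), as log2 value minus the mean of the 5 control arrays, with colours ending at 2 log2 units in each direction. Rab20 stands out on all shock and 1 h arrays, and the columns of the 4.5 h group differ most from control, with Rab8b and Rab12 higher and Rab30 and Rab17 lower.

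The promoters of the 2 Rab genes with the largest rise and of the 2 with the largest fall at 4.5 h among those with a promoter entry are shown, since these genes carry the contrast between directions. The sequences are from RefSeq on GRCm38.p6 and run from 250 bases before the annotated start to 50 bases after it, 5' to 3' on the gene's strand, with capitals marking a match to ACGTG, the core of the hypoxia response element, or to CACGTG, the E-box that contains it on both strands. Rab20 lies at chr8:11478591-11478890 on the minus strand, Rab8b at chr9:66919656-66919955 on the minus strand, Rab17 at chr1:90967618-90967917 on the minus strand, and Rab3a, the first of its 2 entries, at chr8:70754453-70754752 on the plus strand. Rab30 was not shown.
Rab20: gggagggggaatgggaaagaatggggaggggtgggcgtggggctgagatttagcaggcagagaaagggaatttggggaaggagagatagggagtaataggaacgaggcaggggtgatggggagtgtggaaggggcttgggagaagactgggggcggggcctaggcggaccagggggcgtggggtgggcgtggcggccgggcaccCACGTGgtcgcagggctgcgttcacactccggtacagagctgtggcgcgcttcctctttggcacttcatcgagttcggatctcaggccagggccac
Rab8b: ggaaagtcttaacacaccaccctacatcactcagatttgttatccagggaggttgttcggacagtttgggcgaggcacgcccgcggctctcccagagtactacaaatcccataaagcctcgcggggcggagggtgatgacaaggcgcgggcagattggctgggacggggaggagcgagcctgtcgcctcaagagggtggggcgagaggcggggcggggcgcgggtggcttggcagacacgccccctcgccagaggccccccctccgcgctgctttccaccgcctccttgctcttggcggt
Rab17: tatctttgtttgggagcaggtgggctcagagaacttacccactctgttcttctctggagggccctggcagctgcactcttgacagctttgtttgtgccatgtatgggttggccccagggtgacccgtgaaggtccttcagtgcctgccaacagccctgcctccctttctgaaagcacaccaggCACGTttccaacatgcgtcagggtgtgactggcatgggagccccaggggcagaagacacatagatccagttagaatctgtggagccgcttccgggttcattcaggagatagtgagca
Rab3a: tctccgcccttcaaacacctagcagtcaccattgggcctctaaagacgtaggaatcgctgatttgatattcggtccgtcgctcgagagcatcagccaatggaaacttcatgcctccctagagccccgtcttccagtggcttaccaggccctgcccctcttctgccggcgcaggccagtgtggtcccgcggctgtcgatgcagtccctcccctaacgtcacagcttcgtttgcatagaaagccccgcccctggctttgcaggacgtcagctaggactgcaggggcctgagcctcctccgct
Searched on both strands, ACGTG occurred in a promoter of 4 of the 9 Rab genes with an entry called higher at 4.5 h. These were Rab20, Rab21, Rab31 and Rab33b. Of the 11 genes with an entry called lower it occurred in a promoter of 3, Rab17, Rab23 and Rab24. It occurred in 13 of the 38 Rab genes with an entry and in 19.6% of all 32851 promoters. For these and the following letters a gene was counted if any of its entries matched, whereas the share of all promoters counts each entry singly. Genes with several entries thus have more chances to match, and the figures are not directly comparable. CACGTG occurred in 6 of the 38 and in 7.15% of all promoters, the AP-1 letters TGANTCA in 2 of the 38 and in 7.81%, and the cAMP response element TGACGTCA in 2 of the 38 and in 1.79%. A match is a string of letters in this window and not evidence of binding.

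Among the 10 early endosome Rab genes, 3 were called higher and 2 lower at 4.5 h against control (15.1% and 23.8% of all genes). Rab20, which acts on endosomes and maturing phagosomes of macrophages, was the Rab gene with the earliest rise. Its level was 5.42, 5.41, 5.97, 5.67 and 4.84 on the control arrays, 5.57, 5.25 and 6.04 after minor trauma, 7.29, 7.10, 6.83 and 6.67 in shock, 7.38, 8.21, 8.12 and 7.90 at 1 h of resuscitation, and 6.80, 6.5, 7.05 and 6.55 at 4.5 h. Every array from shock onward lay above every control and minor trauma array, and every 1 h array lay above all others. Against control, Rab20 was 2.85-fold higher in shock (difference 1.51 ± 0.22 SE, adjusted p = 0.000147), 5.42-fold higher at 1 h (2.44 ± 0.22, adjusted p = 8.43e-08) and 2.40-fold higher at 4.5 h (1.26 ± 0.22, adjusted p = 9.29e-05). It was also 2.55-fold higher in shock than after minor trauma (adjusted p = 0.00208), while minor trauma differed from control by 0.16 (adjusted p = 0.765). Within the arrays without the added control RNA the difference of shock from control was 1.59 (adjusted p = 0.136), and both calls of the resuscitated groups against control held in each set. At 4.5 h it was 2.26-fold lower than at 1 h (adjusted p = 0.000482). It was the only Rab gene called at 1 h against shock (2.17% of the Rab genes, against 1.25% of all genes, 0.873% higher and 0.374% lower), 1.90-fold higher with an adjusted p of 0.0489. That call was kept when control 3, control 5, minor trauma 2, minor trauma 3, shock 1 or the first 1 h array was left out, and lost when any 1 of the other 14 was, with adjusted p from 0.0162 to 0.189 over all 20 omissions.

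Neutrophil markers were higher in the groups in which Rab20 was called higher, and some already after minor trauma. Of 13 listed neutrophil markers 8 were tested. Against control, 7 of the 8 were called higher in the shock group, where 2.03% of all genes were. All 8 were called higher in both resuscitated groups, against 4.61% of all genes in the earlier and 15.1% in the later. Their summed signal ran from 109 to 422 on control arrays, 300 to 591 after minor trauma and 534 to 2490 in shock. It ran from 2920 to 4590 at 1 h and from 4320 to 4920 at 4.5 h. The mean levels of the shock group were 9.39 for S100a8 and 9.04 for S100a9. Those of the other tested neutrophil markers were 5.01 to 6.02, so the sum in that group mainly followed S100a8 and S100a9. After minor trauma 2 of the 8 were called higher, against 2.07% of all genes. These were S100a8 (2.33, adjusted p = 0.0396) and S100a9 (1.99, adjusted p = 0.0494), and Rab20 was not called there. From shock on the sum lay above the control range on every array, also at 4.5 h, where Rab20 was lower than at 1 h. The neutrophil markers Mmp9 and Clec4e lay above the array median on no control or minor trauma array. The summed signal of 8 monocyte and macrophage markers was 1440 to 2490 on control arrays, 1840 to 2550 in shock, 2100 to 2570 at 1 h and 3300 to 4520 at 4.5 h. In shock 1 of these 8 was called higher (2.03% of all genes) and at 1 h 3 (4.61%), with sums that overlapped those of control. The part of these cells in the result was not tested. In whole liver, a change in the number of cells of a type and a change in RNA per cell cannot be told apart.

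Rab21, which carries integrins through early endosomes, was at 9.24, 9.52, 9.35 and 9.60 on the 4.5 h arrays, against 8.60, 8.73, 8.44, 8.65 and 8.56 on control arrays. It stayed between 8.50 and 8.84 on every array of minor trauma, shock and 1 h, so that all 4 arrays of the 4.5 h group lay above the other 16. The 4.5 h level was 1.78-fold higher than control (0.83 ± 0.10, adjusted p = 1.45e-06) and 1.69-fold higher than at 1 h (adjusted p = 1.53e-05). With the values as deposited neither was called (0.65, adjusted p = 0.0857, and 0.59, adjusted p = 0.194). Rab31, which runs between the trans-Golgi and endosomes, was at 6.13, 6.01, 6.40 and 6.42 at 4.5 h, against 5.50, 5.65, 5.42, 4.81 and 6.10 in control. The groups overlapped through control 5, and the rise was 1.68-fold (0.75 ± 0.23, adjusted p = 0.0122). The call was lost with the values as deposited (0.52, adjusted p = 0.239) and within both sets by added control RNA (adjusted p = 0.154 and 0.0508), and the F test did not call Rab31 (adjusted p = 0.0553). Rab14, which links Golgi and endosomes, was at 10.41, 10.58, 10.55 and 10.49 at 4.5 h, against 11.24, 10.85, 10.95, 11.08 and 10.97 in control, a fall of 1.43-fold (-0.51 ± 0.08, adjusted p = 5.45e-05) with no overlap.

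The 3 Rab5 genes, which drive early endosome fusion, gave no call against control at 4.5 h, with differences of 0.15 for Rab5a (95% interval -0.10 to 0.40), 0.08 for Rab5b (-0.30 to 0.46) and 0.41 for Rab5c (0.04 to 0.77, adjusted p = 0.0753). Rab5c was called 1.42-fold higher at 4.5 h than at 1 h (adjusted p = 0.0422), a call lost by leaving out any array of those groups other than the second 1 h array (adjusted p up to 0.142). Rab4a and Rab4b, which return cargo quickly to the surface, differed from each other. Rab4a was at 8.05, 7.71, 7.84 and 8.06 on the 4.5 h arrays, against 8.15, 8.13, 8.35, 8.68 and 8.37 in control, and was called lower (-0.43 ± 0.13, adjusted p = 0.0103). That call was lost with the values as deposited (-0.63, adjusted p = 0.114) and within the sets with and without the added control RNA (adjusted p = 0.121 and 0.14). Rab4b was at 7.15, 7.19, 7.36 and 7.43 at 4.5 h, against 7.06, 6.72, 7.09, 7.29 and 7.22 in control, and was not called (0.21, adjusted p = 0.247).

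**Figure D2:**
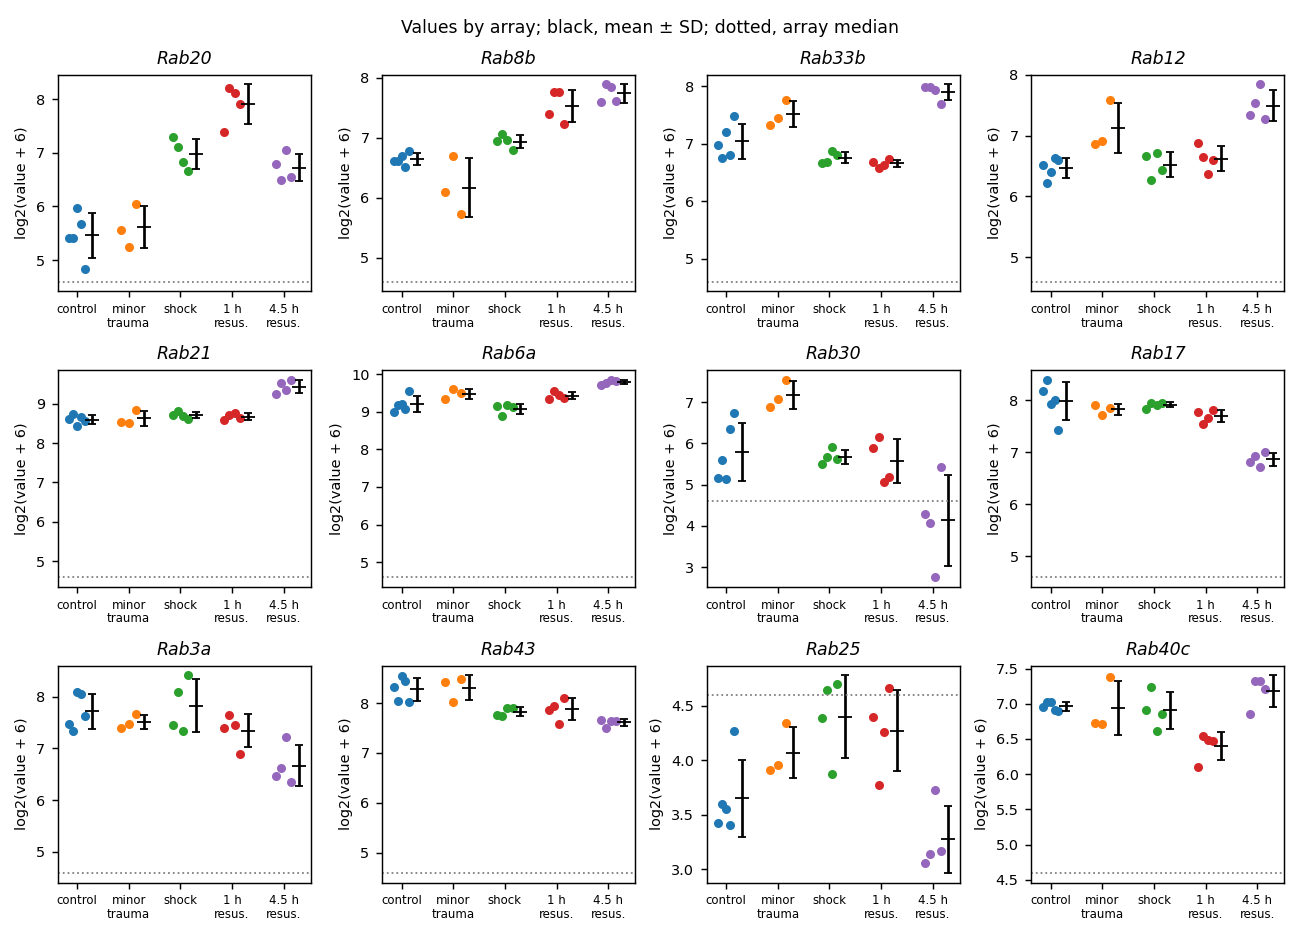
Level of 12 Rab genes on each array (coloured points) by group, as log2(signal + 6) after normalization, with group mean ± SD in black (n = 5, 3, 4, 4 and 4 from left to right) and the array median dotted. Axes do not start at 0 and differ between panels. Rab20 peaks at 1 h, Rab21 and Rab33b are highest at 4.5 h, Rab17 is lowest at 4.5 h, and Rab25 lies near or below the array median throughout.

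Of 11 Rab genes of recycling endosomes and delivery to the polarized surface, 3 were called higher and 3 lower at 4.5 h (15.1% and 23.8% of all genes). Rab8b, which carries vesicles from the Golgi and recycling endosomes to the plasma membrane, was the other Rab gene already higher at 1 h. Its level was 6.61, 6.61, 6.70, 6.52 and 6.78 in control, 6.10, 6.69 and 5.72 after minor trauma, 6.94, 7.06, 6.96 and 6.79 in shock, 7.40, 7.76, 7.76 and 7.23 at 1 h, and 7.60, 7.89, 7.85 and 7.62 at 4.5 h. All 8 resuscitated arrays lay above all 12 others. It was 1.85-fold higher at 1 h (0.89 ± 0.16, adjusted p = 0.000687) and 2.14-fold higher at 4.5 h (1.10 ± 0.16, adjusted p = 1.31e-05) than in control. With the values as deposited the 1 h difference was 0.80 (adjusted p = 0.116). Shock exceeded minor trauma by 0.77 (adjusted p = 0.0101), and by 0.54 with an adjusted p of 0.0707 when minor trauma 3 was left out.

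Rab12, which sends the transferrin receptor from recycling endosomes to lysosomes, was at 7.33, 7.53, 7.84 and 7.27 at 4.5 h, against 6.51, 6.22, 6.40, 6.63 and 6.60 in control. It was 2.03-fold higher at 4.5 h (1.02 ± 0.16, adjusted p = 4.1e-05) with no overlap, and 1.83-fold higher than at 1 h (adjusted p = 0.000521). With the mean of its probe sets the difference was 0.65 against control, which stayed called, and 0.21 against 1 h (adjusted p = 0.385). It was also the only Rab gene called after minor trauma, where it stood at 6.86, 6.91 and 7.59 (0.65 ± 0.18, adjusted p = 0.0482). That call was lost when any 1 of 16 of the 20 arrays was left out, minor trauma 3 among them, with adjusted p from 0.026 to 0.297 over the 20 omissions. Rab35, which acts in fast recycling to the plasma membrane, was at 7.25, 7.06, 7.15 and 6.83 at 4.5 h, against 6.69, 6.41, 6.40, 6.31 and 6.64 in control, 1.50-fold higher (0.58 ± 0.14, adjusted p = 0.00164) with no overlap.

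Rab17, an epithelial Rab of polarized transport through recycling endosomes, fell late. It was at 6.81, 6.93, 6.71 and 7.0 on the 4.5 h arrays, against 8.17, 8.39, 7.93, 8.00 and 7.42 on control arrays, and between 7.54 and 7.95 in the other 3 groups. All 4 arrays of the 4.5 h group lay below the other 16. The level at 4.5 h was 2.18-fold lower than in control (-1.12 ± 0.14, adjusted p = 2.51e-06) and 1.79-fold lower than at 1 h (adjusted p = 0.000217). Both calls held in every alternative processing and every omission of an array. Its other kept probe set fell by 1.2 (adjusted p = 0.000523).

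Rab13, known from tight junctions, and Rab11a, the main Rab of the recycling endosome, fell less. Rab13 differed from control by -0.40 ± 0.14 at 4.5 h (adjusted p = 0.0285), and the call was lost without control 1, control 4 or either of the first 2 arrays of the 4.5 h group (adjusted p up to 0.127). Rab11a was at 9.63, 9.64, 9.58 and 9.60 at 4.5 h, against 9.80, 9.88, 9.82, 9.99 and 9.77 in control, a fall of 1.18-fold (-0.24 ± 0.08, adjusted p = 0.0186) that missed the threshold without control 4 (adjusted p = 0.0523), under median centring (-0.28, adjusted p = 0.0857) and with the mean of its probe sets (-0.11, adjusted p = 0.398). Its paralog Rab11b, Rab8a, Rab10, which moves glucose transporter vesicles, Rab15 and Rab25 were not called against control at 4.5 h. Rab25, an epithelial relative of Rab11, was called lower at 4.5 h than at 1 h (adjusted p = 0.00999), with 3.06, 3.14, 3.73 and 3.17 at 4.5 h, against 4.40, 3.77, 4.26 and 4.66 at 1 h. It lay above the array median on none of the 4.5 h arrays and on 1 of the 4 arrays at 1 h, so no size is given.

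Of 11 Rab genes of the endoplasmic reticulum and Golgi, 4 were called higher and 3 lower at 4.5 h (15.1% and 23.8% of all genes). Rab33b, a Golgi Rab that also acts in autophagosome formation, was at 7.98, 7.98, 7.93 and 7.69 on the 4.5 h arrays, against 6.97, 6.76, 7.2, 6.80 and 7.49 in control, a rise of 1.80-fold (0.85 ± 0.14, adjusted p = 5.18e-05) with no overlap. At 1 h it was at 6.68, 6.58, 6.63 and 6.74, so the later rise was 2.36-fold (1.24 ± 0.15, adjusted p = 1.87e-06), also with no overlap. In shock it was at 6.66, 6.69, 6.88 and 6.81, against 7.32, 7.45 and 7.76 after minor trauma, 1.68-fold lower (adjusted p = 0.00554). The values as deposited lost this call (-1.03, adjusted p = 0.0765), as did the sets with and without the added control RNA (adjusted p = 0.0897 and 0.396). Shock against control did not call Rab33b.

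Rab6a, which drives retrograde traffic within the Golgi, was at 9.71, 9.78, 9.85 and 9.82 at 4.5 h, against 8.99, 9.19, 9.21, 9.08 and 9.55 in control, 1.50-fold higher (0.59 ± 0.11, adjusted p = 0.000164) with no overlap. Rab18, found on the endoplasmic reticulum and lipid droplets, was 1.22-fold higher (0.29 ± 0.10, adjusted p = 0.0217), with overlap between the groups. Rab1a, which carries cargo from the endoplasmic reticulum to the Golgi, was at 11.37, 11.55, 11.35 and 11.30 at 4.5 h, against 11.10, 11.02, 11.06, 11.16 and 11.29 in control, 1.20-fold higher (0.26 ± 0.10, adjusted p = 0.0372). The calls of Rab18 and Rab1a were lost under median centring in place of quantile normalization. That of Rab18 was also lost without control 1 or any of the first 3 arrays of the 4.5 h group (adjusted p up to 0.0737), and that of Rab1a without any of the first 3 control or the first 3 arrays at 4.5 h (adjusted p up to 0.131).

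Rab30, a Golgi Rab, varied widely within groups. It was at 5.17, 5.59, 5.14, 6.34 and 6.73 in control, 6.89, 7.08 and 7.54 after minor trauma, 5.50, 5.66, 5.91 and 5.62 in shock, 5.89, 6.15, 5.07 and 5.18 at 1 h, and 4.28, 4.07, 2.76 and 5.43 at 4.5 h. The 4.5 h and control arrays overlapped, and 1 of the 4 arrays at 4.5 h lay above the array median. The difference between 4.5 h and control was called (-1.66 ± 0.40, adjusted p = 0.00208), but with values below the array median raised to it the level was 1.97-fold lower. Its other kept probe set fell by 1.5 (adjusted p = 0.00123). Within the arrays without the added control RNA the difference was also -1.66, with an adjusted p of 0.135. Against 1 h the difference was -1.44 ± 0.42 (adjusted p = 0.0114, 1.69-fold lower with values raised to the median), and -0.98 with an adjusted p of 0.0540 without the third 4.5 h array. All 3 minor trauma arrays lay above all 5 control arrays, by 1.38 on average, which was not called (adjusted p = 0.0757).

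Rab43, which acts between the Golgi and the endoplasmic reticulum, was at 7.66, 7.51, 7.64 and 7.65 at 4.5 h, against 8.33, 8.05, 8.55, 8.44 and 8.02 in control. It was 1.59-fold lower at 4.5 h (-0.66 ± 0.13, adjusted p = 0.00042) with no overlap, and lay at -0.45 in shock (adjusted p = 0.0745) and -0.40 at 1 h (adjusted p = 0.0596). Its other kept probe set differed by 0.13 at 4.5 h, and with the mean of both the difference was -0.32 (adjusted p = 0.117). Rab1b was at 7.75, 7.83, 8.00 and 7.89 at 4.5 h, against 8.75, 8.53, 8.40, 8.58 and 8.13 in control, 1.53-fold lower (-0.61 ± 0.14, adjusted p = 0.0015) with no overlap. Rab2a, Rab2b, Rab34 and Rab36 were not called against control at 4.5 h. The F test over the 5 groups did call Rab2a (adjusted p = 0.0492). Kept probe sets of Rab2a were called in opposite directions at 4.5 h, at 0.46 ± 0.17 (adjusted p = 0.0416) and -0.24 ± 0.09 (adjusted p = 0.0343). Rab2a was the only Rab gene with such a disagreement in any comparison.

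Of 7 Rab genes of late endosomes, lysosomes and autophagy 2 were called lower and none higher at 4.5 h than in control, where 23.8% of all genes were called lower and 15.1% higher. Rab24, found on autophagosomes, was at 7.67, 7.47, 7.28 and 7.41 at 4.5 h, against 8.29, 8.03, 8.03, 8.29 and 7.79 in control, 1.55-fold lower (-0.63 ± 0.14, adjusted p = 0.001) with no overlap. Rab9, which returns mannose 6-phosphate receptors from late endosomes to the Golgi, was at 9.58, 9.70, 9.69 and 9.38 at 4.5 h, against 9.80, 10.15, 9.81, 10.08 and 9.94 in control, 1.29-fold lower (-0.37 ± 0.11, adjusted p = 0.00946) with no overlap. The Rab9 call was lost with the values as deposited (-0.52, adjusted p = 0.153) and within the sets with and without the added control RNA (adjusted p = 0.0808 and 0.129). Rab7, the central Rab of late endosomes, differed by 0.08 (95% interval -0.11 to 0.27), while another of its probe sets was called at 0.40 (adjusted p = 0.0228). Rab29, a partner of Lrrk2 at the Golgi and lysosomes, was at 7.85, 8.12, 7.63 and 7.70 at 4.5 h, against 7.2, 7.2, 7.40 and 7.10 at 1 h, 1.51-fold higher (0.60 ± 0.16, adjusted p = 0.00539; 0.47 and 0.0517 under median centring), but was not called against control (0.35, adjusted p = 0.0637). Rab7b, and Rab32 and Rab38, which are known from lysosome-related organelles, gave no call in any of the 7 comparisons.

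Of the 4 tested Rab genes of regulated secretion 2 were called lower and none higher at 4.5 h (23.8% and 15.1% of all genes). Rab3a, best known from the exocytosis of synaptic vesicles, was at 6.47, 6.62, 7.23 and 6.36 at 4.5 h, against 7.47, 7.33, 8.09, 8.06 and 7.62 in control, 2.06-fold lower (-1.04 ± 0.23, adjusted p = 0.000922) with no overlap. Rab3d, a secretory granule Rab, was at 4.68, 4.30, 5.42 and 4.59 at 4.5 h, against 5.65, 5.57, 5.38, 5.60 and 5.08 in control. It was 1.63-fold lower (-0.71 ± 0.21, adjusted p = 0.00939), with overlap and with 2 of the 4 arrays at 4.5 h above the array median. With values below the median raised to it, Rab3d was 1.55-fold lower. Within the arrays without the added control RNA the difference was -0.38 (adjusted p = 0.399), and the F test did not call Rab3d (adjusted p = 0.0642). Rab27a and Rab27b, which dock secretory granules, differed by -0.24 (95% interval -0.90 to 0.43) and 0.08 (-0.45 to 0.60).

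Among the remaining 3 tested members, Rab23, a negative regulator of Hedgehog signalling, was at 5.75, 5.72, 5.60 and 5.99 at 4.5 h, against 6.63, 6.51, 6.84, 6.5 and 5.68 in control, 1.59-fold lower (-0.67 ± 0.18, adjusted p = 0.00475), with overlap through control 5. With the mean of its probe sets the difference was -0.40 (adjusted p = 0.12). Rab40c, which recruits a ubiquitin ligase, was the only Rab gene called lower at 1 h. It was at 6.10, 6.54, 6.49 and 6.47 at 1 h, against 6.96, 7.02, 7.03, 6.91 and 6.90 in control, 1.48-fold lower (-0.56 ± 0.16, adjusted p = 0.0231) with no overlap. The call was lost without control 3 (adjusted p = 0.0512) or the first 1 h array (adjusted p = 0.0927), under median centring (adjusted p = 0.0871) and with the mean of its probe sets (-0.34, adjusted p = 0.183). At 4.5 h it stood at 6.85, 7.32, 7.33 and 7.21, 1.71-fold higher than at 1 h (0.78 ± 0.16, adjusted p = 0.000979). Rab28, known from cilia, was not called.

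**Figure D3:**
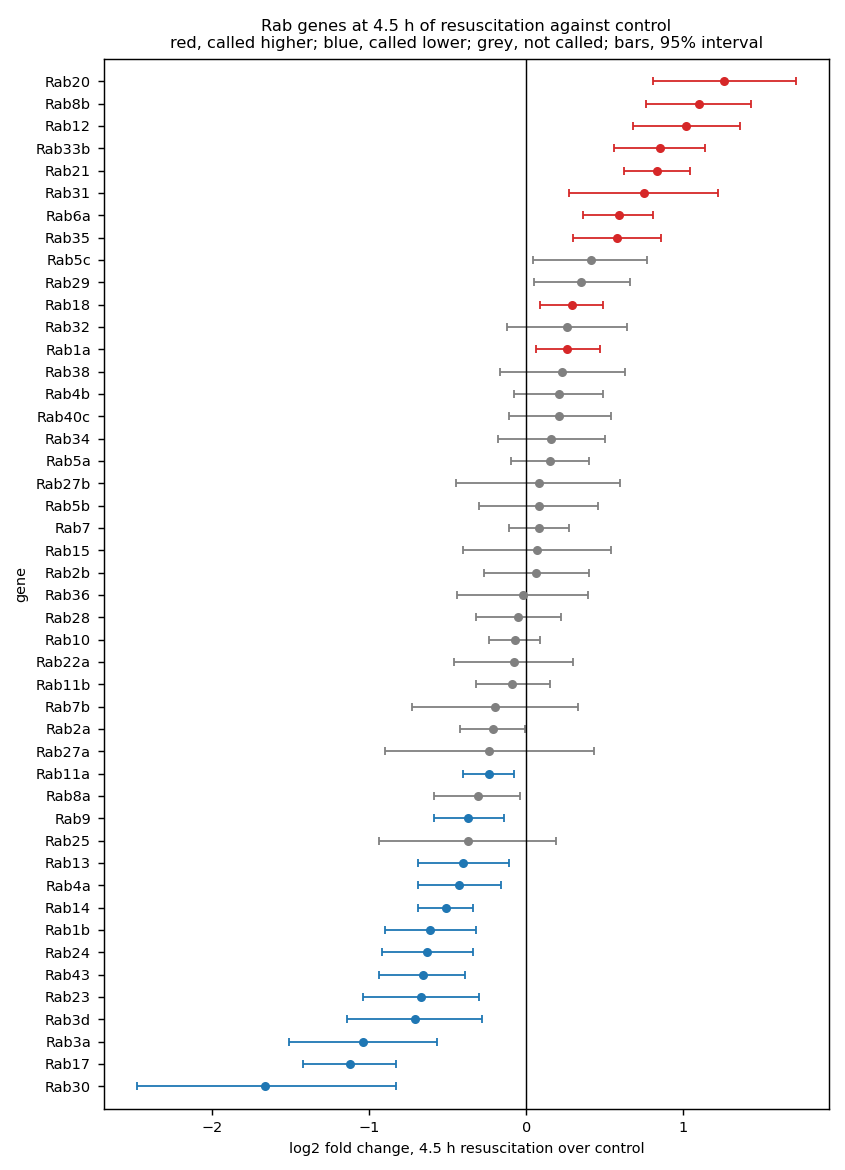
Difference of each of the 46 Rab genes at 4.5 h of resuscitation over control in log2 units (points) with its 95% interval from limma (bars), called higher in red (10), called lower in blue (13) and not called in grey (23). Rab20, Rab8b and Rab12 head the rises, and Rab30, Rab17 and Rab3a lie lowest, Rab30 with 1 of its 4 arrays at 4.5 h above the array median.

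From 1 h to 4.5 h of resuscitation 20 of 46 Rab genes (43.5%) were called, 10 higher and 10 lower at 4.5 h, against 33.1% of all genes, 14.9% higher and 18.2% lower. In 17 the arrays did not overlap (37%, against 28.4% of all genes). With the values as deposited 4 were called, 1 higher and 3 lower (8.7%, against 13.5% of all genes), and with median centring 14, 4 higher and 10 lower (30.4%, against 29.1%). Within the set with the added control RNA the share was 11.1%, against 11.9% of all genes, and within the set without it 13.6%, against 18.8%. Shock against minor trauma called 7 Rab genes (15.2%, against 9.55% of all genes, 4.18% higher and 5.38% lower). Rab20 and Rab8b were higher in shock, and Rab30, Rab33b, Rab12, Rab6a and Rab18 lower. The calls of Rab6a (-0.39, adjusted p = 0.0469) and Rab18 (-0.35, adjusted p = 0.0472) were lost under 16 and 15 of the 20 omissions of 1 array, and those of Rab12 (-0.60, adjusted p = 0.0451) and Rab30 (-1.50, adjusted p = 0.0394) under 9 and 6. In all, 27 Rab genes were called in at least 1 of the 7 comparisons and 19 in none. The matching share over all genes was not computed, so these counts do not set the Rab genes apart. The smallest F statistics were those of Rab15 (0.192), Rab5b (0.731) and Rab27b (0.772).

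Close paralogs did not all move alike. The per-array difference between the 2 genes of a pair was compared between the 4.5 h and control arrays in 11 pairs with a two-sided exact permutation test, whose smallest possible p is 0.00794, a test added after the values were seen. Rab8a changed by -0.31 where Rab8b changed by 1.10, a difference between them of -1.41 (exact p = 0.00794, adjusted p over the 11 pairs = 0.0437). Rab4a changed by -0.43 and Rab4b by 0.21, a difference of -0.63 (exact p = 0.00794, adjusted p = 0.0437). Rab1a changed by 0.26 and Rab1b by -0.61, a difference of 0.88 that missed the threshold after adjustment (exact p = 0.0159, adjusted p = 0.0583). The other 8 pairs had adjusted p from 0.218 to 0.69. Among them were Rab3a and Rab3d, which were both called lower and differed by -0.33 (adjusted p = 0.336).

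Most other probe sets of the genes called at 4.5 h pointed the same way. The 23 genes had 26 further kept probe sets, of which 21 moved in the same direction and 11 were called in it. How often this holds over all genes called at 4.5 h was not computed. Of the 46 members 17 had a single kept probe set. For 2 further genes not called by their brightest probe set another one was called higher at 4.5 h, at 0.54 for Rab10 (adjusted p = 0.00686) and 0.62 for Rab34 (adjusted p = 0.0197). The 12 Rab genes not tested were Rab3b, Rab3c, Rab6b, Rab9b, Rab19, Rab26, Rab33a, Rab37, Rab39, Rab39b, Rab40b and Rab42. Each lay above the array median on at most 2 arrays, and 4 of them belong to the 8 secretion Rab genes on the array.

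Partners of the Rab proteins were tested at 4.5 h against control in 4 lists. Of 35 tested exchange factors 2 were called higher, 11 lower and 22 not called, with a median difference of -0.27. Of 33 GTPase-activating proteins 3 were called higher, 12 lower and 18 not called (median -0.29). Of 35 effectors 4 were higher, 13 lower and 18 not called (median -0.20), and of 5 genes of prenylation, escort and membrane extraction none was higher, 3 were lower and 2 not called (median -0.21). Over all genes 15.1% were called higher and 23.8% lower, with a median of -0.089. The lists were written from general knowledge with earlier results of these data known, and no test of the lists was made.

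**Figure D4:**
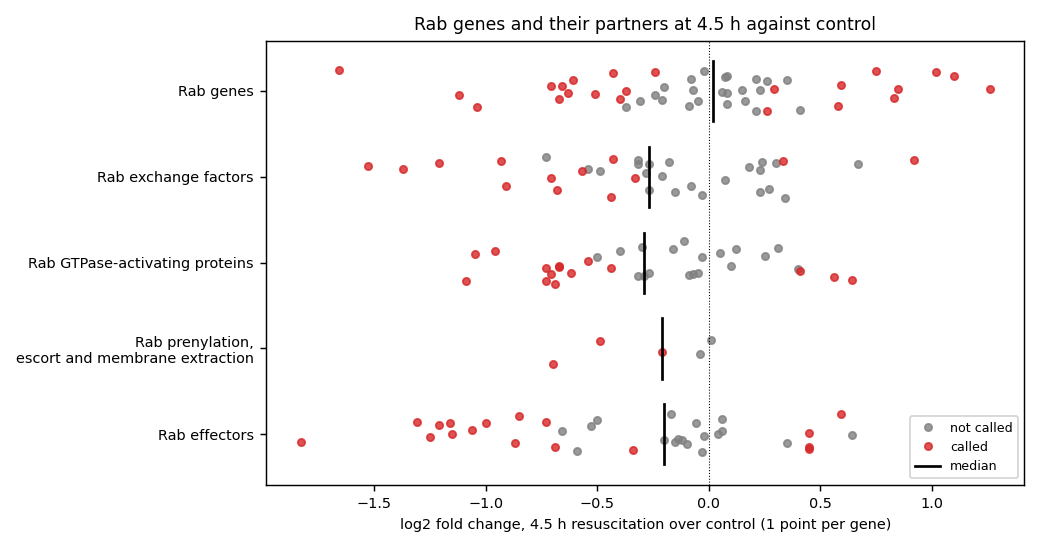
Difference at 4.5 h of resuscitation over control in log2 units for the Rab genes and for 4 lists of their partners, 1 point per gene, red where called, with the median of each list as a black bar. The medians of the 4 partner lists lie between -0.29 and -0.20, and that of the Rab genes at 0.02.

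Rilp, which links Rab7 on late endosomes and lysosomes to dynein, had the largest fall of the named partners at 4.5 h. It was at 5.94, 5.65, 6.21 and 6.13 at 4.5 h, against 7.95, 8.09, 7.96, 7.94 and 7.14 in control, 3.56-fold lower (-1.83 ± 0.17, adjusted p = 4.79e-08) with no overlap. Dennd5b, a DENN-domain exchange factor, was at 8.15, 8.11, 7.63 and 8.08, against 9.24, 9.24, 9.34, 9.76 and 9.24 in control, 2.59-fold lower (adjusted p = 1.32e-06). Rabep1, the Rab5 effector rabaptin-5, was at 5.92, 6.05, 5.77 and 5.96, against 7.48, 7.50, 7.02, 7.2 and 6.69 in control, 2.38-fold lower (adjusted p = 3.13e-05). All 3 were lower on every array at 4.5 h than on any control array. Rab3il1, an exchange factor that also binds Rab3a, was at least 1.59-fold lower (adjusted p = 4.24e-05), a bound because no 4.5 h array lay above its median.

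Further exchange factors called lower were Rin2 (-1.21, adjusted p = 7.81e-05), which acts on Rab5, and Vps9d1 (-0.93, adjusted p = 0.00156). Among effectors Ehbp1 (-1.31, adjusted p = 0.00121) and Rab11fip4 (-1.21, adjusted p = 0.000671), which binds Rab11, were lower. Rin2 and Rab11fip4 were each above the array median on 1 of the 4 arrays at 4.5 h. Among GTPase-activating proteins Evi5 (-1.09, adjusted p = 0.013) and Grtp1 (-0.73, adjusted p = 0.000129) were lower. Sgsm2 (adjusted p = 0.00151) and Tbc1d30 (adjusted p = 0.0247) were also called lower, with all arrays at 4.5 h at or below the array median. In control Sgsm2 lay above it on only 2 of the 5 arrays and Tbc1d30 on 3, so both were dim in both groups and no size is given. In the prenylation list Rabggta, the alpha subunit of the Rab geranylgeranyl transferase, was at 6.56, 6.45, 6.67 and 6.87, against 7.25, 7.17, 7.64, 7.73 and 6.92 in control, 1.63-fold lower (adjusted p = 0.00301) with no overlap. Rabac1 (-0.49, adjusted p = 0.00946) and Gdi2 (-0.21, adjusted p = 0.0207), which holds GDP-bound Rab proteins in the cytosol, were lower too.

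Partners called higher at 4.5 h were the exchange factors Dennd4a (0.92, adjusted p = 0.000643) and Ccz1 (0.33, adjusted p = 0.0339), which acts on Rab7. The others were the GTPase-activating proteins Tbc1d8 (0.64), Usp6nl (0.56) and Sgsm1 (0.41), and the effectors Plekhm1 (0.59), Rbsn, Uso1 and Golga5 (0.45 each), with adjusted p from 0.00314 to 0.0483 among these 7. Earlier, 1 of 35 exchange factors was called higher at 1 h and 1 lower, where 4.61% of all genes were called higher and 5.31% lower. Rabgef1, the exchange factor of Rab5 known as Rabex-5, was at 8.12, 7.84, 7.89 and 7.25 at 1 h, against 6.94, 7.02, 6.41, 7.08 and 7.23 in control, 1.79-fold higher (0.84 ± 0.19, adjusted p = 0.00603) with no overlap. Its values at 4.5 h were 6.75, 6.69, 6.74 and 6.75, within the range of the control arrays. Rgp1, part of an exchange complex for Rab6, was lower at 1 h (-0.63, adjusted p = 0.00265). Of 33 GTPase-activating proteins 2 were called lower at 1 h, Tbc1d13 (-0.75, adjusted p = 0.0281) and Tbc1d10b (-0.52, adjusted p = 0.0341). Called higher was 1, Rab3gap2 (0.43, adjusted p = 0.0472), part of an exchange complex for Rab18. After minor trauma 2 of 33 GTPase-activating proteins were called lower, Evi5 (-1.36, adjusted p = 0.0439) and Sgsm2 (adjusted p = 0.0273). Sgsm2 lay above the array median on 0 minor trauma arrays and on 2 of the 5 control arrays. Of 35 effectors 2 were called lower, Rabep1 (-0.90, adjusted p = 0.0273) and Rufy3, where 1.37% of all genes were. In shock 1 of 5 prenylation genes was called lower (1.08% of all genes), Gdi2 (-0.26, adjusted p = 0.0466), a call lost under 17 of the 20 omissions of 1 array. Rufy3 was called lower in each of the 3 earlier groups, in shock and at 1 h as the only 1 of 35 effectors called. It stood at -0.83 after minor trauma (adjusted p = 0.0219), -0.69 in shock (adjusted p = 0.0226) and -0.90 at 1 h (adjusted p = 0.00105). Without minor trauma 3, all 4 calls of partners after minor trauma were lost, at -0.58 for Evi5 (adjusted p = 0.258), -0.53 for Rabep1 (0.186) and -0.84 for Rufy3 (0.107), and with an adjusted p of 0.137 for Sgsm2. In shock the call of Rufy3 was lost under 7 omissions (adjusted p up to 0.0825), and at 1 h those of Rab3gap2 under 12 (up to 0.142) and of Tbc1d10b and Tbc1d13 under 6 each (up to 0.0911 and 0.111). At 4.5 h those of Sgsm1 (16 omissions, up to 0.214), Ccz1 (5, up to 0.146), Plekhm1 (4, up to 0.0937), Tbc1d30 (3, up to 0.106) and Gdi2 (3, up to 0.0533) were lost under some. The other named calls of partners at 1 h and 4.5 h held under all 20.

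Some markers of liver cells were called at 4.5 h against control, where 15.1% of all genes were called higher and 23.8% lower. Of 8 Kupffer cell markers 1 was called higher and 6 lower, with a summed signal of 2170 to 2280 at 4.5 h, against 3410 to 4800 in control. Of 9 endothelial markers 2 were called higher and 5 lower, with 1310 to 1530 at 4.5 h, against 2060 to 2600 in control. Of 8 hepatocyte markers 2 were called higher and 1 lower, with 55800 to 58800 at 4.5 h, against 53000 to 60900 in control. Of 8 monocyte and macrophage markers 4 were called higher and 2 lower, and Chil3 and Cx3cr1 lay above the array median on no control array. Stellate cell and fibroblast markers gave 2 lower of 9, cholangiocyte markers 2 higher of 3, T and NK cell markers 1 higher of 4, platelet and red cell markers 2 higher of 5, and B cell markers none of 5. The part of these cells in the changes of the Rab genes and their partners was not tested.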

How the data were processed

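RNA from whole liver had been copied from oligo-dT primers, labelled with biotin as cRNA and hybridised to 1-colour Affymetrix arrays, per the labels' protocols. The deposited values are intensity signals on a linear scale, 1 per probe set and array, computed by the authors with MAS5 per the submitters' processing notes, whose version and settings are not given in the sources used here. They were not scaled between arrays, and the number of arrays limits the precision.

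A pseudocount of 6 was added, the logarithms to base 2 (log2) of all 20 arrays were quantile normalized, and probe sets above the median of their own array on at least 3 arrays were kept (27274 of 45101). Gene names came from the platform annotation: 34945 probe sets had 1 gene, 932 several and 9160 none, and only the first were used. Where a gene had several kept probe sets, the brightest on average represented it. A model of 5 group means with 7 contrasts was fitted with limma 3.58.1 in R 4.3.3, with moderated statistics and an intensity trend, over 12832 genes, with Benjamini-Hochberg adjustment within each comparison, and was tested on simulated data. An F test covered the 5 groups. Where all arrays of the lower group were at or below their median, a fold is a bound against the higher of that median and the gene's value, or is left out.

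Arrays were grouped by their labels. Replicate numbers were not used to pair them. Deviations of same-numbered arrays from their group means correlated between -0.076 and 0.165 over 36 pairs. Those of differently numbered arrays correlated between -0.173 and 0.154 over 123 pairs. This does not show whether same-numbered arrays were handled together. The members and lists were chosen with earlier results of these data known. Members with a called change of at least 0.58 were described by array, the other called members by their change, and up to 4 called partners per list, direction and comparison with control were named. Alternatives covered the normalization, pseudocount, filter, probe set rule, trend, array weights, blocks, the sets by added control RNA and omitted arrays. Omissions for the partners were added after the data were seen. Figures used matplotlib 3.10.9 (python 3.11.15, numpy 2.4.6, pandas 2.3.3). Sequences came from RefSeq's promoters on GRCm38.p6, which held 38 of the tested members.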

Additional observations from a re-analysis of the deposited data

Results flagged for a closer look

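In 7 of the 76 sets of 4 or 5 arrays examined for the 19 Rab genes described by array, 1 array stood apart from the others of its group, where chance alone flags about 1 in 20. Rab33b was at 7.69 on the fourth 4.5 h array, against 7.93 to 7.98 on the others, and Rab43 at 7.51 on the second, against 7.64 to 7.66. Rab25 was at 4.27 on the fifth control array, against 3.41 to 3.60 on the others, and at 3.73 on the third 4.5 h array, against 3.06 to 3.17. Rab40c was at 6.10 on the first 1 h array, against 6.47 to 6.54. On the second shock array Rab29 was at 7.15, against 7.47 to 7.52 on the others, and Rab6a at 8.88, against 9.13 to 9.17.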

How the results depend on the processing

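Of the 56 calls of single Rab genes, none changed direction in 1117 fits with 1 array omitted or in 781 fits under 14 other settings, not all of which could be fitted for every gene, and 37 passed the threshold under every omission. Without normalization between arrays 18 of 56 calls were kept, and with median centring 46. With values as deposited the counts against control were 1 at 1 h (3.76% of all genes called) and 10 at 4.5 h (22.7%). They were 2 for shock against minor trauma (2.9%) and 0 for 1 h against shock by limma (0.592%). At an unadjusted p of 0.05 the latter was 1. For 4.5 h against 1 h the count was 4 (13.5%), and by the F test 8 (24.7%). Quantile normalization gave 3, 23, 7, 1, 20 and 24 in the same order. For minor trauma against control, 1 gene was called in the main setting. That gene, Rab12, was higher. The count was 3 with median centring (5.65% of all genes called) and 2 with a pseudocount of 18 (3.46%), all higher. With array weights it was 2, both lower (5.07%). With the replicate number as a block it was 5, 4 higher and 1 lower (8.91%). Without both control 5 and minor trauma 3 it was 2, both lower (6.25%). It was 0 with no filter, no trend and the added control RNA as a block (1.46%, 2.09% and 2.54%). At an unadjusted p of 0.05 it was 9 in each of these. Within the sets of arrays with and without that RNA it was 0 (1.75% and 0% of all genes), with 6 and 2 unadjusted. Shock against control had 2 with array weights (5.91% of all genes) and 2 with the replicate block (3.76%). It had 4 without control 5 and minor trauma 3 (5.58%), and 0 within the set without the RNA (0.442%, 3 Rab genes unadjusted). The 1 h group against control had 2 higher and 1 lower in the main setting. With array weights it had 6 (2 higher, 4 lower, 13.5% of all genes called). The replicate block also gave 6 (2 higher, 4 lower, 11.1%). Without those 2 arrays it had 9 (3 higher, 6 lower, 14.9%), and within the set without the RNA 1 (2.42%). For 4.5 h against control, 15 were called within the set with the RNA and 11 within the set without it, and for 4.5 h against 1 h 5 and 6. Shock against minor trauma had 3 with no filter (5.56% of all genes), 4 with no trend (8.44%) and 4 with the RNA as a block (8.95%). Within the sets with and without the RNA it had 2 (2.07%) and 0 (0.025%), with 9 and 8 unadjusted. For 1 h against shock, 3 were called with array weights (3.21% of all genes) and 2 without those 2 arrays (2.11%). The count was 0 with a pseudocount of 1, no filter, no trend, the RNA as a block and within each set. There it was 4, 5, 4, 4, 3 and 2 unadjusted. Of all genes 1.1%, 0.698%, 1.15%, 1.18%, 0.461% and 0.00834% were called, in the same order. The F test called 6 and 8 within the sets. The fits within a set have 10 arrays each. For the other settings the cause was not tested. The replicate block changed no other count by over 1.5 times, and 5 of 20 arrays correlated best with an array of their own number. Omitting 1 array at a time, the counts ran from 0 to 6 for minor trauma (6 without control 5, 0 without any 1 of 15 arrays, minor trauma 3 among them), 1 to 2 for shock (2 without control 5 or minor trauma 3), 2 to 7 at 1 h (7 without control 5, 5 without control 2 or minor trauma 3) and 20 to 25 at 4.5 h against control. They ran from 3 to 8 for shock against minor trauma (3 without minor trauma 3, shock 1, shock 2 or shock 4), 0 to 2 for 1 h against shock, 15 to 22 for 4.5 h against 1 h and 19 to 29 for the F test. The shares of all genes called under the same omissions are not given here, so these ranges do not set the Rab genes apart. Under 5 other settings chosen after seeing the data, the difference of Rab8a from Rab8b ran from -1.45 to -1.31 and that of Rab4a from Rab4b from -0.65 to -0.59. Their adjusted p rests on the smallest p the exact test can give, so it says nothing about stability.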
